A study of Mus musculus with 28 samples.

Results

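Heart RNA of untreated del337TR mice was compared with heart RNA of untreated control mice, gene by gene across the whole array. Members were the 7 arrays with del337TR titles and the 7 with Control titles that carried no treatment in their labels, 14 of the 28 arrays of the series. Each array held total RNA of frozen heart from 1 labelled sample, and the series text speaks of 7 individuals in each group. The del337TR group is described in the labels as having a deletion in 337TR, and the title of the series names resistance to thyroid hormone. The labels do not name the receptor gene, the way the mutation was made, the genetic background, the age or the sex of the animals. The other 14 arrays came from control and del337TR animals given WY14643, an activator of the fatty acid sensor PPARalpha, with no dose or duration in the labels. These arrays served for the estimate of spread and as a second reading of the strain difference in other samples. They were also set beside the untreated arrays for Slfn3 and some other probe sets. Nothing in the labels says whether samples came from separate litters, so p-values measure the spread between these samples, and the number of arrays limits the precision.

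Thyroid hormone reaches the nucleus as T3 and binds the receptors alpha and beta, encoded by Thra and Thrb, which sit on DNA as partners of retinoid X receptors. Without hormone the receptors hold corepressors at their target genes, and with hormone they exchange them for coactivators. Receptors that bind T3 poorly keep the repressed state and block normal receptors at the same sites, which is the basis of resistance to thyroid hormone. In the heart the hormone is known to raise the fast myosin heavy chain Myh6 and the calcium pump Atp2a2 and to lower the slow myosin heavy chain Myh7. Thra is the main receptor of heart muscle.

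The array reads 45101 probe sets, short sets of oligonucleotides that each report 1 transcript region, and 45037 that are not controls of the array were tested. Values are linear signals scaled to an equal trimmed mean on every array, so a signal is a relative brightness and not a number of molecules. Differences are given on the log2 scale as del337TR minus control with their standard error (SE), and a group's signals as the median with the lowest and highest of its 7 arrays. Unless another n is named, n is 7 per group. Ventricular muscle markers such as Myh6, Myl2 and Actc1 were bright on all arrays, and the 7 markers of that list summed to between 85519 and 118400 in controls and between 90345 and 116980 in del337TR. Median signals ran from 65.5 to 75.8 in controls and from 61.8 to 76.6 in del337TR.

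Several features differed between arrays, and 0 of 9 array measures differed between strains at an exact permutation p under 0.05. Atrial muscle RNA varied widely, with a mean log2 signal of Myl4, Myl7 and Sln between 3.75 and 12.8 in controls and between 8.45 and 13.3 in del337TR. Its difference was 2.48 with an exact two-sided permutation p of 0.125, or 0.304 adjusted over 9 array measures. The 9 count this atrial score and also Myl4, Myl7 and Sln singly, so they are not separate measures. Xist, the X-inactivation RNA, and the Y-linked Eif2s3y split the arrays into 2 female and 5 male controls and 4 female and 3 male del337TR samples, and the exact permutation p of that difference was 0.592. Replicate 7 correlated least with the rest of its own group in all 4 groups of the series, with r from 0.933 to 0.944. Whether the arrays numbered 7 share a batch was not tested. Control replicate 7 also held the lowest Myh7 signal, 3103 against 14554 for the next control, and its 3' to 5' ratio of Actb, a sign of RNA quality, was 1.52 against 1.18 to 1.26 in the other 6 controls. The part of RNA quality in the values of this heart was not tested. For genes whose differences are given below, values without control replicate 7 stand where leaving it out moved the unadjusted p across 0.05. Between strains the exact permutation p of the difference in the 3' to 5' ratio was 0.544 for Actb and 0.248 for Gapdh.

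A single probe set of 45037 passed limma's test at an adjusted p under 0.05, a share of 0.00222%. It reads Slfn3, a gene of the schlafen family, a rodent-expanded group of genes named for their link to the arrest of growth in lymphocytes. Slfn3 lies on chromosome 11 among other schlafen genes. Because it is the gene on which the comparison turns, the 250 bases before its annotated start are shown (GRCm38.p6 of RefSeq, chr11:83191080-83191329, plus strand), with those of its neighbour Slfn4 (chr11:83174936-83175185, plus strand) for comparison. Both are written 5′ to 3′, and capitals mark the 9 bases ACTTCCTGG, which were noticed after the sequences had been read.
Slfn3: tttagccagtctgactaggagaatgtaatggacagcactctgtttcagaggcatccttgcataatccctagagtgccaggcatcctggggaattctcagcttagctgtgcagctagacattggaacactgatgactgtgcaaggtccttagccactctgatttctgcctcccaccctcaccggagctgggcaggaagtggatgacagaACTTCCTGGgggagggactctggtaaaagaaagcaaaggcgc
Slfn4: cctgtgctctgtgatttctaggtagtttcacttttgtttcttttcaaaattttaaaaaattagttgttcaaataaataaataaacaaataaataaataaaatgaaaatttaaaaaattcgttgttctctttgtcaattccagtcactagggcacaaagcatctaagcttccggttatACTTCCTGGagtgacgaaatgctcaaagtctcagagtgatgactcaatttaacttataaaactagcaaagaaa
Searched on both strands (ACTTCCTGG or CCAGGAAGT) in the 300 bases from 250 before to 50 after the start, these 9 bases stood in the windows of Slfn1, Slfn2, Slfn3 and Slfn4, and not in those of Slfn5, Slfn8, Slfn9 and Slfn14. They began 42 bases before the start of Slfn3, 73 before Slfn4, 74 before Slfn1 and 55 before Slfn2. The same letters stood in 277 of 32851 mouse promoter windows, or 0.843%. The receptor core element AGGTCA, searched as AGGTCA or TGACCT, stood in none of the schlafen windows and in 5340 of all windows, or 16.3%. A match of letters describes the window and shows no binding.

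In the 7 control hearts, replicates 1 to 7 in order, the Slfn3 signal was 136, 119.9, 64.1, 178.6, 78.0, 83.5 and 57.1. In the 7 del337TR hearts it was 7.7, 0.6, 1.8, 22, 11.2, 7.7 and 1.5. Every del337TR array therefore lay below every control array, and the closest pair was 22 against 57.1. The median was 83.5 in controls and 7.7 in del337TR, and the means were 102 ± 44.2 (SD, n = 7) and 7.50 ± 7.53. Slfn3 fell by 4.49 on the log2 scale (SE 0.71, 95% interval -5.94 to -3.04, limma adjusted p = 0.0456). In brightness it stood at the 58.5th percentile of all probe sets in controls and at the 3.43rd in del337TR, so its del337TR signals are near the bottom of the array's range. The size of the fold follows from how such dim signals are treated, being 22.5 on the log2 scale used and 4.95 when 16 was added to every signal before the logarithm (log2 difference -2.31 ± 0.20, limma adjusted p = 3.4e-07).

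Schlafen genes are best known from leukocytes, and bulk RNA cannot tell fewer cells of a type from less RNA per cell. The 6 measured leukocyte markers summed to between 861 and 1238 in controls and between 796 and 1479 in del337TR, and the 6 T cell markers to between 189 and 546 and between 216 and 388. The 4 measured B cell markers summed to between 274 and 545 in controls and between 257 and 462.5 in del337TR, and 3 of 4 were lower (median -0.32), with Cd79b of the B cell receptor at -1.96 ± 0.73. All 3 pairs of ranges overlapped, and the part of these cells in the Slfn3 difference was not tested.

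The low Slfn3 signal was shared by both treated groups. Controls given WY14643 had signals from 2.6 to 10.3 (median 6.0), and del337TR animals given WY14643 from 0.8 to 13.1 (median 1.0). The 7 untreated controls thus lay above all 21 other arrays, the highest of which was at 22. The strain difference among treated animals was -1.33 ± 0.71, with an unadjusted p of 0.0701. The difference between the untreated and the treated strain effect was -3.16 ± 1.00 (limma unadjusted p = 0.00397, adjusted p = 0.956), and with 16 added it was -2.15 with an adjusted p of 0.0019. Within females the strain difference of Slfn3 was -3.72 ± 0.92 (2 controls, 4 del337TR) and within males -5.42 ± 1.00 (5 controls, 3 del337TR). The direction and the separation of the groups did not rest on 1 array, but the call did. When 1 of the 28 arrays was dropped at a time, the difference stayed between -4.89 and -4.02, and the adjusted p lay between 0.00992 and 0.205 and under 0.05 in 5 of 28 cases. These 5 left out del337TR replicate 4 or 5, or replicate 1, 2 or 4 of del337TR with WY14643. With only the 14 untreated arrays in the fit the adjusted p was 0.573, and with sex or the atrial score as a covariate it was 0.106 and 0.188.

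**Figure D1:**
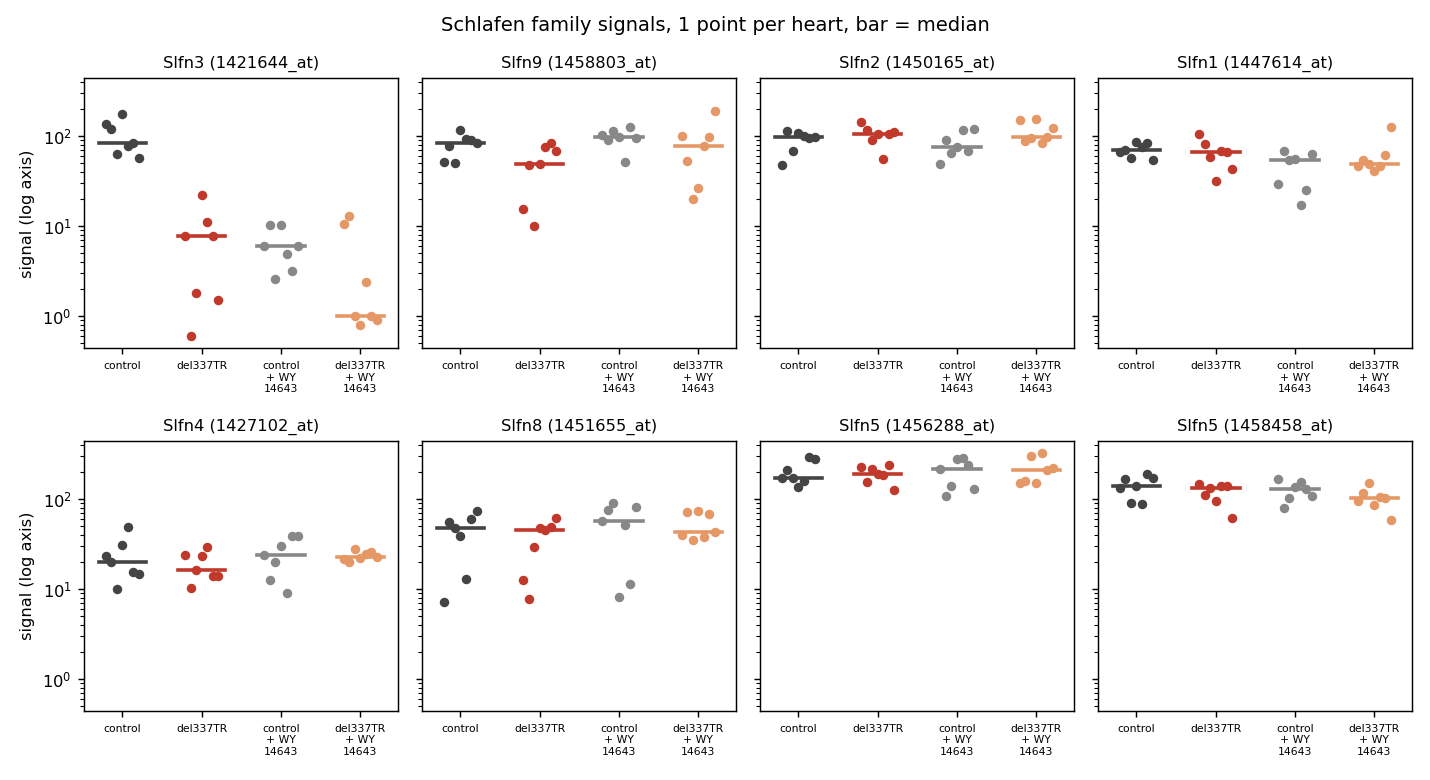
Signals of schlafen probe sets on a log axis in the 4 groups, with 1 point per heart (n = 7 per group) and a bar at the group median. The 7 untreated controls of Slfn3 lie between 57.1 and 178.6, above the 21 other hearts, which reach at most 22; the other schlafen panels overlap between groups.

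The other schlafen genes overlapped between strains. The longer members of the family carry a helicase-like part that the short members lack. Slfn9 had a median signal of 84.3 in controls (50.8 to 118) and 49.2 in del337TR (10.1 to 84.6), a difference of -0.96 ± 0.46 with an unadjusted p of 0.0460, and 0.0642 without control replicate 7. Its second, dimmer probe set stood at -0.49 ± 0.41. Slfn2, which is needed for the quiescence of T cells, had 99.2 in controls (47.9 to 116) and 108 in del337TR (56.5 to 144) and a difference of 0.21 ± 0.23. Slfn1, the founding growth-inhibiting member, stood at -0.20 ± 0.30 on its brighter probe set and at -0.05 ± 0.31 on one near signals of 5. Slfn4, known from macrophages, stood at -0.23 ± 0.32 and Slfn8 at -0.16 ± 0.59, or 0.03 without control replicate 7. The 3 probe sets of Slfn5, a long member, stood at 0.12 ± 0.36, -0.06 ± 0.24 and -0.24 ± 0.22, of which the middle one was 0.02 without control replicate 7. Schlafen genes resemble each other in sequence, so a probe set may also read a relative. Slfn3 has 1 probe set, so no second one could be set beside it.

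Genes next to Slfn3 in the RefSeq gene order did not pass the test. Of the 10 nearest genes measured, 5 on each side, 0 had an unadjusted p under 0.05, where 3.35% of all genes did, so the count does not set them apart. On the side of lower coordinates these were Slfn4, Slfn1, Slfn2, the pseudogene Slfn10-ps (-0.19 ± 0.65) and Slfn8. On the other side AI662270 stood at 0.14 ± 0.54, Ap2b1, a subunit of the clathrin adaptor, at 0.11 ± 0.15, Rasl10b at -0.51 ± 0.31, Gas2l2 at -0.30 ± 0.62 and 1700020L24Rik at -0.41 ± 0.31. The 10 nearest genes of Thrb, among them the retinoic acid receptor Rarb (0.08 ± 0.21), the topoisomerase Top2b (0.04 ± 0.07) and the clock repressor Nr1d2 (0.14 ± 0.17), all stood between -0.11 and 0.14, again with 0 at an unadjusted p under 0.05.

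After Slfn3 the smallest adjusted p in limma's test was 0.682, so the remaining differences are described below the threshold. At an unadjusted p under 0.05 there were 1806 probe sets, or 4.01%, of which 748 (1.66%) were higher and 1058 (2.35%) lower in del337TR. The split between directions depended on the scaling, with 872 higher and 966 lower after quantile normalization and 870 and 854 after centring each array on its median. With 1 probe set a gene, the brightest, 609 of 18193 genes (3.35%) reached an unadjusted p under 0.05, of which 293 stood higher (1.61%) and 316 lower (1.74%). At the gene level 1 (0.00550%) passed the adjusted threshold. The 7 arrays of each strain did not overlap for 31 probe sets (0.0688%), 8 higher (0.0178%) and 23 lower (0.0511%).

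The data set narrow limits for bright transcripts. Of the 27022 probe sets above the 40th percentile of brightness, a signal of 40.8, 24037 (89.0%) had a 95% interval that lay within a 2-fold difference either way, against 19.7% of the dimmer ones. The median SE was 0.16 above that percentile and 0.50 below it. Estimated differences beyond 2-fold were found for 73 of the brighter probe sets, 29 higher and 44 lower. The plot of all probe sets by brightness shows this narrowing, with Slfn3 apart on the dim side.

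**Figure D2:**
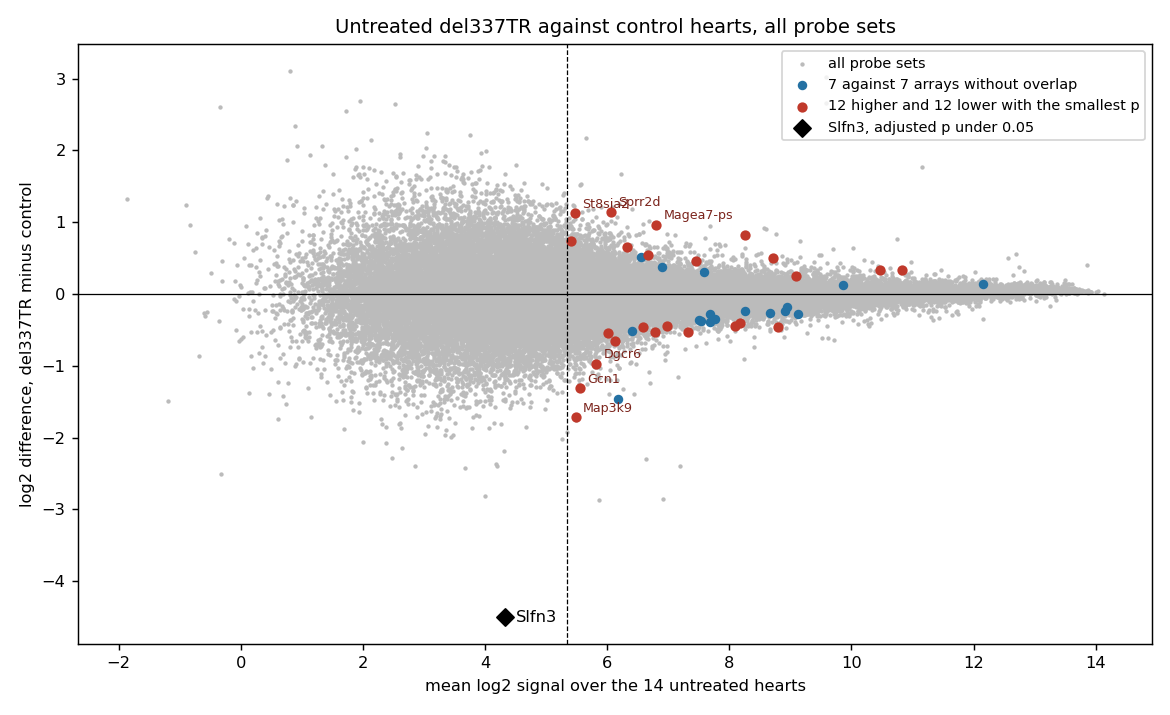
Log2 difference (del337TR minus control, untreated) against the mean log2 signal over the 14 hearts for all 45037 probe sets; the dashed line marks the 40th percentile of brightness, a signal of 40.8. Slfn3 stands at -4.49 below the cloud, and the spread of differences narrows toward bright probe sets.

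The probe set next to Slfn3 in rank has no gene name in the annotation. It had signals of 32.1 in controls (19.5 to 94.1) and 131 in del337TR (112.6 to 187.6) and a difference of 1.67 ± 0.33 (limma adjusted p = 0.682), with all 7 del337TR arrays above all 7 controls. It was chosen after its values were seen. In animals given WY14643 its strain difference was 0.21 ± 0.33.

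The 12 named genes with the smallest unadjusted p on the higher side, among brighter probe sets, had unadjusted p from 0.000205 to 0.00217 and limma adjusted p from 0.992 to 0.999. They were ranked by this p, so their p is the basis of the choice. Atf4, the transcription factor of the integrated stress response, had a median signal of 205 in controls (153 to 458) and 376 in del337TR (352 to 495), a difference of 0.82 ± 0.22. Its brightest probe set, with a mean signal of 1349 in controls, stood at 0.14 ± 0.13, and a dim one, with a mean signal of 13.9, at -0.11 ± 0.33. The probe sets of Atf4 therefore disagreed in size and in direction. Pik3ca, the catalytic subunit of phosphoinositide 3-kinase, had 489 in controls (478 to 538) and 597 in del337TR (521 to 646) and a difference of 0.25 ± 0.07, with 6 of 7 del337TR arrays above all controls, while its other 5 probe sets stood between -0.97 and 0.05. Api5, an inhibitor of cell death, had 1607 in controls (1496 to 1846) and 2058 in del337TR (1725 to 2557) and 0.34 ± 0.09. Of its other 4 probe sets 1 stood the opposite way at -0.29 (unadjusted p 0.0174), a bright one stood at -0.00, and those near the bottom of the array at 0.52 and 0.13. Homer2, a scaffold of calcium signalling, had 1215 in controls (1114 to 1561) and 1636 in del337TR (1375 to 1853) and 0.34 ± 0.09, and its other 2 probe sets stood at -0.40 and -0.01. Tcf4, a helix-loop-helix transcription factor, had 344 in controls (286 to 442) and 465.9 in del337TR (427 to 831) and 0.50 ± 0.14. Its other 5 probe sets stood between 0.03 and 0.20, and del337TR replicate 6 alone gave the 831.

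Sirt6, a chromatin deacetylase, had a median of 82.6 in controls (67.6 to 114) and 127 in del337TR (106 to 149), a difference of 0.54 ± 0.14. Asl, the argininosuccinate lyase of arginine synthesis, had 65.2 in controls (47.7 to 80.4) and 97.7 in del337TR (73.6 to 150.1) and 0.65 ± 0.19, again with 6 of 7 del337TR arrays above all controls. Ajap1, a protein of cell junctions, had 32.2 in controls (16.3 to 49.5) and 54.5 in del337TR (39.7 to 72.6) and 0.74 ± 0.22, and its other 2 probe sets stood close by at 0.76 ± 0.60 and 0.79 ± 0.31. St7l, a relative of a tumour suppressor candidate, had 149.9 in controls (124 to 208) and 204 in del337TR (184 to 230.2) and 0.46 ± 0.11, where 1 control array was at 208 and the next at 152, and its 2 dimmer probe sets stood at -0.35 and 0.04. Also in this set were Sprr2d, a protein of the horny layer of skin, with 59.9 in controls (16 to 99.5) and 103 in del337TR (65.9 to 135) and 1.15 ± 0.32, and the pseudogene Magea7-ps with 96.1 in controls (38.2 to 138) and 161 in del337TR (116 to 209.6) and 0.96 ± 0.23. St8sia2, an enzyme that builds polysialic acid, had 28.6 in controls (20.4 to 48.7) and 91.5 in del337TR (32.6 to 99.1) and 1.13 ± 0.33 on 1 probe set. Its other probe set went the opposite way, with 102 in controls (85.9 to 126) and 76.3 in del337TR (52.4 to 83.8) and -0.51 ± 0.19 and no overlap between strains. The probe sets of St8sia2 therefore gave no common direction.

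The 12 on the lower side had unadjusted p from 0.000156 to 0.00137 and limma adjusted p from 0.992 to 0.999. Among them was Map3k9, a mixed-lineage kinase upstream of JNK, with a median of 75.8 in controls (65.5 to 109.9) and 22.9 in del337TR (12.8 to 77.2) and a difference of -1.72 ± 0.40. Of its 7 del337TR arrays 6 lay below all controls, and its other 2 probe sets stood at 0.19 and -0.01. Fgfr3, a receptor for fibroblast growth factors, had 80.2 in controls (72.2 to 129) and 62.2 in del337TR (36.9 to 72.8) and -0.65 ± 0.16, and its second probe set also stood lower at -0.37 ± 0.18, with an unadjusted p of 0.0799 without control replicate 7. Prkx, an X-linked kinase of the cAMP-dependent family, had 126 in controls (105 to 185) and 86.6 in del337TR (79.5 to 113) and -0.53 ± 0.14, and -0.89 within females and -0.36 within males. The brightest probe set of Prkx, with a mean signal of 460 in controls, stood at -0.02 ± 0.09, and the remaining one at -0.25 ± 0.16. Gskip, which ties glycogen synthase kinase 3 to protein kinase A, had 502 in controls (457 to 643) and 393 in del337TR (276 to 422) and -0.46 ± 0.10. All 7 del337TR arrays of this Gskip probe set lay below the controls, but the other 3 probe sets of the gene stood between -0.08 and 0.11.

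Gcn1, the partner that activates the kinase Gcn2 on stalled ribosomes, had a median of 71.3 in controls (64.4 to 95.8) and 19.9 in del337TR (13.4 to 84.8) and a difference of -1.31 ± 0.37, with 5 of 7 del337TR arrays below all controls. Its other 4 probe sets stood between -0.13 and 0.29. Hbs1l, which frees stalled ribosomes, had 309.7 in controls (289 to 385) and 245 in del337TR (175 to 281) and -0.45 ± 0.12 without overlap, while its other 2 probe sets stood at 0.04 and 0.03. Entpd5, a nucleotidase of glycoprotein folding, had 109.7 in controls (85.5 to 142) and 82.8 in del337TR (76.3 to 88.1) and -0.46 ± 0.12 on the dimmest of its 6 probe sets. The other 5, with control means from 439 to 1289, stood between -0.12 and 0.10. Cds1, the enzyme that makes CDP-diacylglycerol for phospholipids, had 144 in controls (126 to 175) and 109 in del337TR (91.6 to 122) and -0.45 ± 0.12 without overlap, and its second probe set stood at -0.38 ± 0.15.

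Zbtb17, the zinc finger partner of Myc, had a median of 191 in controls (173 to 223) and 149 in del337TR (92 to 164) and a difference of -0.53 ± 0.14 without overlap, and its second probe set stood at 0.74. Mybl2, a driver of the cell cycle, had 74.7 in controls (66.6 to 108) and 52.7 in del337TR (42.1 to 66.9) and -0.54 ± 0.14, with -0.45 on its second probe set. Rnf14, a ubiquitin ligase that binds the androgen receptor, had 330.3 in controls (287 to 385) and 251 in del337TR (189 to 296) and -0.41 ± 0.10, while its other 3 probe sets stood between -0.12 and 0.14. Dgcr6, from the DiGeorge region, had 81.5 in controls (47 to 126) and 42.8 in del337TR (19.5 to 58.3) and -0.97 ± 0.26, with its 2 brighter probe sets at -0.21 and -0.09. Of the 24 genes 4 had no other probe set, 7 had other probe sets that all stood in the same direction, and 13 had other probe sets that did not all do so.

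**Figure D3:**
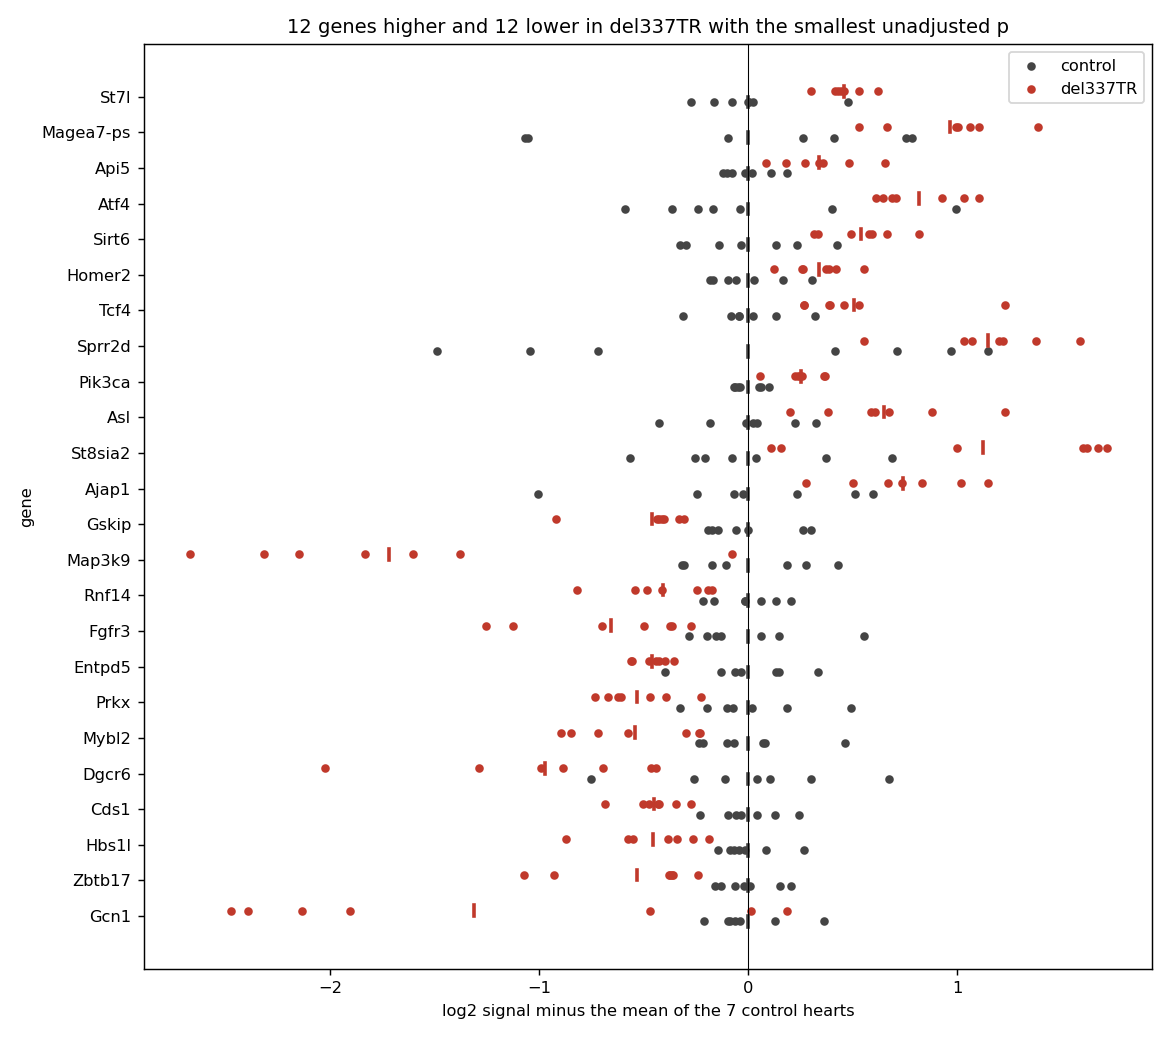
Log2 signal of each heart minus the mean of the 7 control hearts for the 24 genes with the smallest unadjusted p, 12 higher and 12 lower in del337TR; dots are single hearts (n = 7 per strain) and short bars are strain means. Most genes overlap between strains in 1 or more hearts, while Gskip, Cds1, Hbs1l and Zbtb17 do not.

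Another view took the brighter named probe sets whose strains did not overlap, 5 higher and 16 lower. These are 21 of 23130 such probe sets, beside 31 of 45037 (0.0688%) over the whole array. Whether the count exceeds chance was not tested, and the genes are given as a description. Higher without overlap were Riok1, a kinase of small ribosomal subunit assembly (0.37 ± 0.11), Rph3al, a Rab effector of secretion (0.30 ± 0.10), Snx17, a sorting nexin of membrane recycling (0.14 ± 0.07), the chromatin protein Glyr1 (0.12 ± 0.08) and Vmn2r29, named as a pheromone receptor (0.52 ± 0.16). Snx17 was the brightest, with 4399 in controls (4004 to 4600.1) and 4730.3 in del337TR (4647 to 5245), and its unadjusted p was 0.0721 without control replicate 7. The other 4 probe sets of Riok1 stood between -0.32 and 0.13 and the other one of Rph3al at -0.17. Of the 21 genes of both directions 4 had no other probe set, 7 had others that all stood in the same direction, and 10 had others that did not all do so. Some of these separations were small, as for Glyr1 with 899 in controls (848 to 918) and 947 in del337TR (919 to 1081), where the unadjusted p was 0.168.

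On the lower side Colq, the collagen tail that anchors acetylcholinesterase, had the largest difference, with 122 in controls (98.3 to 184) and 51.5 in del337TR (19 to 77.3) and -1.46 ± 0.41. Control replicate 7 was its highest array at 184, the next being 128, and without it the difference was -1.36 ± 0.43. Lman1, the cargo receptor between endoplasmic reticulum and Golgi, had 524 in controls (503 to 529.5) and 418 in del337TR (402 to 499) and -0.24 ± 0.09. The other 4 probe sets of Lman1 stood between -0.24 and 0.12, with the brightest at 0.00. Tgoln1, a protein of the trans-Golgi network, had 607 in controls (551 to 719) and 514 in del337TR (448 to 549) and -0.28 ± 0.09. Dnajc13, an endosomal chaperone partner, stood at -0.18 ± 0.08, and Wipi2, an early autophagy protein, at -0.23 ± 0.09. Slc31a1, the copper importer, had 202 in controls (182 to 267) and 161 in del337TR (136 to 179) and -0.37 ± 0.13. Map3k4, a kinase upstream of p38, had 444 in controls (421 to 474) and 380.1 in del337TR (309 to 420.1) and -0.26 ± 0.12, and its lowest control and highest del337TR array were less than 1 signal unit apart. Without control replicate 7 its unadjusted p was 0.0508. The chromatin remodeller Chd1 stood at -0.37 ± 0.14, with its other 3 probe sets at 0.09, -0.18 and 0.07. The RNA-binding protein Msi2 stood at -0.35 ± 0.13, the phosphatase subunit Ppp2r5e at -0.38 ± 0.12 and Tmem80 at -0.28 ± 0.10. Other probe sets of Msi2 stood between -0.28 and 0.04, with the brightest at 0.01. Those of Ppp2r5e stood between -0.15 and 0.20, with the brightest at 0.02.

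Agreement between probe sets of 1 gene was used as a further description. At an unadjusted p under 0.05 there were 70 genes represented by 2 or more probe sets. Over the probe sets at that p, 29 of these genes had opposite signs, 10 were higher and 31 lower on all of them. A gene's probe sets at a higher p, where present, are left out of these counts and of the values below. Lman1, for example, counted as lower at -0.24 on each, while its brightest probe set stood at 0.00 and another at 0.12. The 70 are 0.777% of the 9010 genes with 2 or more probe sets. The split turned with the scaling, with 18 higher and 24 lower after quantile normalization and 17 higher and 13 lower after centring. In 32 of the one-directional genes all these probe sets were bright, 6 higher and 26 lower, with limma adjusted p from 0.992 to 0.999. In 3 of the 6 and 14 of the 26 all these probe sets stayed under an unadjusted p of 0.05 without control replicate 7. With WY14643 all of them stood in the same direction for 4 of the 6 and 14 of the 26. The genes named here were chosen after their values were seen. Among the 6 higher were a pair of binding proteins of insulin-like growth factors. Igfbp3 had a median of 158 in controls (72.8 to 235) and 338 in del337TR (118 to 450.5) and a difference of 0.95 ± 0.31, and its second probe set stood at 0.61 ± 0.21. Igfbp4 had 3865 in controls (3213 to 4232) and 4369.6 in del337TR (3844 to 5950.3) and 0.31 ± 0.12, and 0.21 with the atrial score as a covariate. Its other probe set stood at 0.40 ± 0.19, with an unadjusted p of 0.0993 without control replicate 7. With WY14643 the probe sets of Igfbp3 stood at 0.20 and 0.13 and those of Igfbp4 at 0.21 and 0.32. Sox4, a transcription factor of developing tissues, had 1311 in controls (992 to 2042) and 2617 in del337TR (1460.1 to 3615) and 0.76 ± 0.26, with 0.79 ± 0.29 on its other probe set. In animals given WY14643 the Sox4 difference was -0.30 ± 0.26 and -0.35 ± 0.29. Bicc1, Ctbp2 and Kdm6b made up the 6, and without control replicate 7 both probe sets of Ctbp2 and 1 of Bicc1 were above 0.05.

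Of the 26 lower, Srxn1, which restores oxidised peroxiredoxins, had a median of 999 in controls (548 to 1282) and 637 in del337TR (322 to 1527) and a difference of -0.61 ± 0.26, with -0.61 ± 0.28 on its other probe set. In animals given WY14643 these stood at -0.71 ± 0.26 and -0.50 ± 0.28. Without control replicate 7 the untreated p was 0.0513 and 0.0635. Mapk14, the p38alpha kinase, had 496 in controls (371 to 548) and 422 in del337TR (339.5 to 462) and -0.26 ± 0.11, with -0.46 ± 0.16 on the second. Opa1, the inner membrane fusion protein of mitochondria, had 666 in controls (584 to 886) and 551 in del337TR (477 to 629) and -0.28 ± 0.12, with -0.25 ± 0.11 on the second. Without control replicate 7 these were -0.22 (unadjusted p 0.0845) and -0.20 (unadjusted p 0.0940). Sel1l, a part of the machinery that clears misfolded proteins from the endoplasmic reticulum, stood lower on 3 probe sets, at -0.27 ± 0.11, -0.37 ± 0.16 and -0.19 ± 0.09, of which the last had an unadjusted p of 0.0614 without control replicate 7. Stom, a membrane protein first known from red cells, did so at -0.32 ± 0.13, -0.36 ± 0.15 and -0.27 ± 0.12. Mbtps1, the Golgi protease that activates sterol and stress transcription factors, stood at -0.51 ± 0.15 and -0.63 ± 0.24. With WY14643 the same probe sets, in the order given, stood at -0.12 and -0.03 for Mapk14, at 0.01 and -0.26 for Opa1 and at 0.02, -0.18 and 0.02 for Sel1l. There Stom stood the other way on all 3 probe sets, at 0.10, 0.16 and 0.17, and Mbtps1 at -0.09 and 0.46. These probe sets were picked by their p. Probe sets of a gene also share the RNA of the same hearts, so their agreement speaks to the picked probes and not to further animals.

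No receptor probe set passed the test. Thra had a median of 822 in controls (739.8 to 911) and 1079.8 in del337TR (702 to 1163) on its brightest probe set, a difference of 0.23 ± 0.12 (95% interval -0.01 to 0.47). On this probe set 5 of 7 del337TR arrays lay above all controls, and the difference was 0.37 within females, 0.03 within males and 0.20 ± 0.12 in animals given WY14643. The other probe sets of Thra stood at 0.01 ± 0.16 and -0.02 ± 0.22, and their signs changed with the scaling or the covariate. Thrb had 145 in controls (132 to 169.5) and 148 in del337TR (93.5 to 197) and a difference of -0.10 ± 0.15 (95% interval -0.41 to 0.22). Since the labels do not place the deletion, the Thrb signal checks no label. Of 13 measured receptors and cofactors, among them the retinoid X receptors, the coactivators Ncoa1, Ncoa2 and Ncoa3 and the corepressor enzyme Hdac3, 8 were higher and 5 lower, with a median of 0.01 against 0.00 over all 18193 genes. Rxra turned to -0.001 and Gps2 to 0.03 without control replicate 7. All 13 had a 95% interval within 2-fold and 0 an unadjusted p under 0.05, where 3.35% of genes did.

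No gene known to be induced by thyroid hormone passed the test. Myh6 had a median of 14389 in controls (11949 to 17065) and 14093 in del337TR (13135 to 16612) and a difference of 0.04 ± 0.11 (95% interval -0.18 to 0.26). The other probe set of Myh6 stood at -0.24. Atp2a2 had 12145 in controls (10090 to 14126) and 11999 in del337TR (11358 to 14802) and 0.03 ± 0.11. Hcn2, a pacemaker channel, stood at -0.35 ± 0.21, the uncoupling protein Ucp3 at -0.44 ± 0.28, the glucose carrier Slc2a4 at -0.08 ± 0.10 and Klf9, a direct target in many tissues, at 0.14 ± 0.11. The other 6 probe sets of Klf9 stood between -0.17 and 0.29. Thrsp, a lipogenic target, stood at -0.24 ± 0.22, and at -0.12 ± 0.21 without control replicate 7. Of 14 measured members 6 were higher and 8 lower, with a median of -0.04, 12 had a 95% interval within 2-fold, and 0 reached an unadjusted p under 0.05. Hr turned to 0.12 and Kcnd2 to 0.095 without control replicate 7. Quantile normalization gave 4 higher and centring 7. In animals given WY14643 the same list had a median of -0.36, with Thrsp at -0.88 ± 0.22, Gpd2, the mitochondrial glycerol phosphate dehydrogenase, at -0.56 ± 0.15 and Hr at -0.84 ± 0.30.

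Genes repressed by the hormone were 6 higher and 2 lower of 8 (5 higher after quantile normalization), with a median of 0.04 and 0 at an unadjusted p under 0.05. Slc8a1 among them turned to -0.01 without control replicate 7. Myh7 had a median of 14893 in controls (3103 to 20992) and 17465 in del337TR (14572 to 19366) and a difference of 0.41 ± 0.38, which was 0.07 ± 0.32 without control replicate 7. In animals given WY14643 Myh7 had 6007 in controls (3921 to 18817) and 18499 in del337TR (14677 to 24981). That difference was 1.14 ± 0.38 (limma unadjusted p 0.0060, adjusted p 0.428). Tnni1, the slow troponin I of the fetal heart, had 26.9 in controls (17 to 225) and 157 in del337TR (25.2 to 226) and 1.25 ± 0.70, and Pln, the brake of the calcium pump, stood at 0.03 ± 0.10. Of 8 genes of hormone transport and conversion, the deiodinase Dio1 had an unadjusted p of 0.0322 (-0.90 ± 0.40) at signals of 4.1 in controls (3 to 19.6) and 2.8 in del337TR (1.8 to 6.2), among the dimmest of the array. Dio2 stood at -0.19 ± 0.23, and its other 2 probe sets at 0.31 and 0.30. Ttr, the carrier transthyretin, stood at 0.28 ± 0.69, and at -0.12 ± 0.67 without control replicate 7, so its sign rested on that array.

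**Figure D4:**
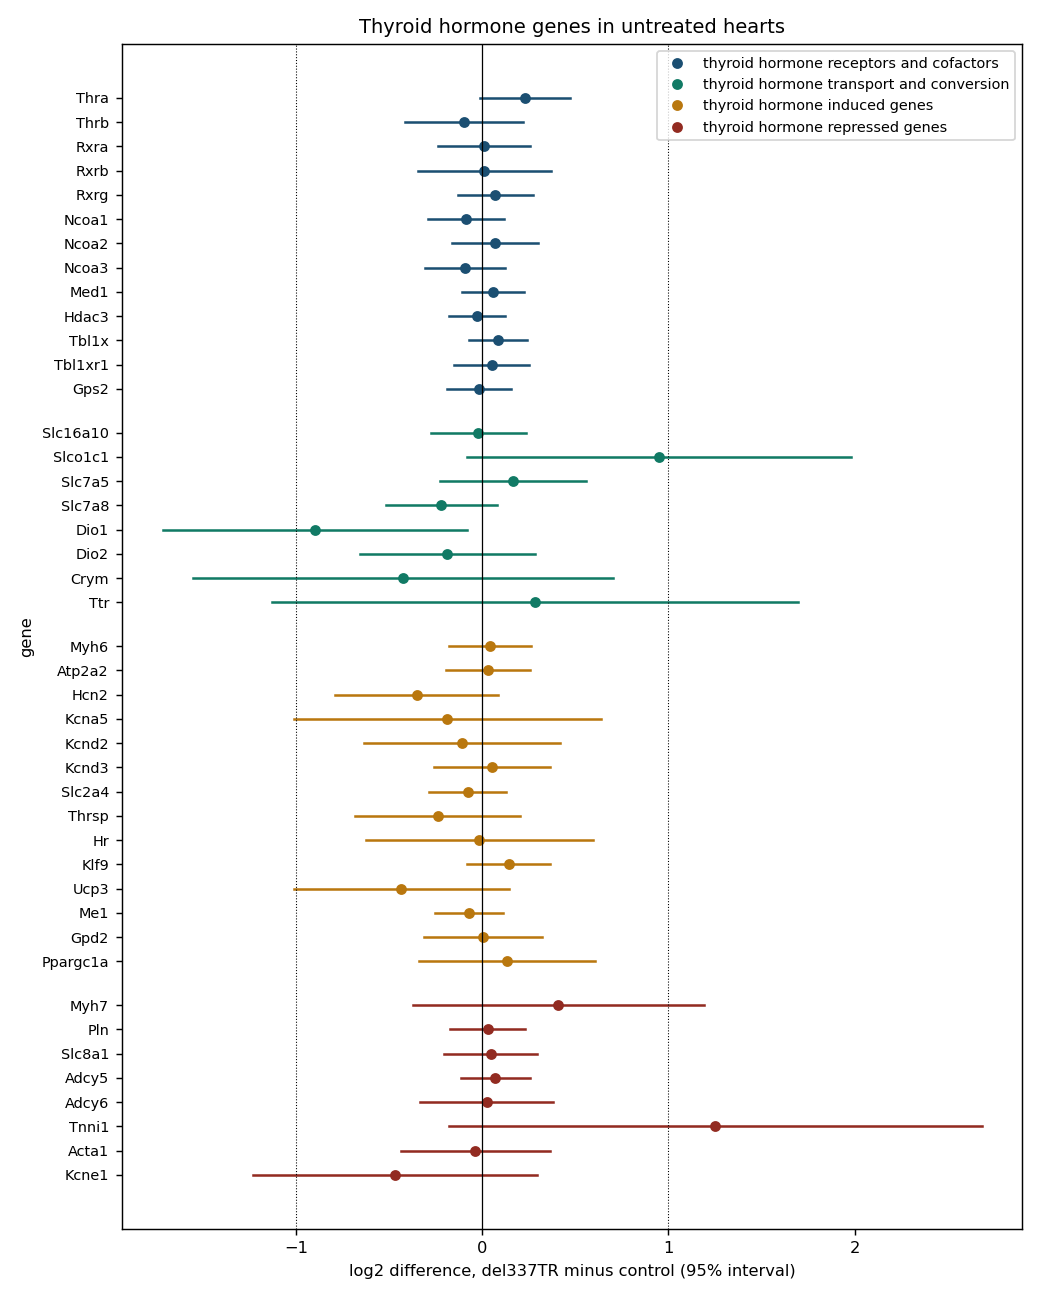
Log2 difference (del337TR minus control, untreated, n = 7 per strain) with its 95% interval for genes of thyroid hormone action, coloured by list; dotted lines mark a 2-fold difference. Intervals of all 13 receptors and cofactors and of 12 of 14 induced genes lie within the dotted lines, while Dio1, Crym, Ttr and Tnni1 are wide.

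Across all 32 gene and marker lists, 280 of 314 entries were measured, which named 261 different genes. Before adjustment 12 of them stood under 0.05, or 4.60% against 3.35% of all genes. Of the 12, 5 were higher in del337TR and 7 lower, and the groups of 1, Slfn3, had no overlap. The other 11 were Slfn9 and Dio1, given above, and 9 more. Nppb, the B-type natriuretic peptide of stretched muscle, had a median of 4612 in controls (3109 to 11301) and 7191 in del337TR (7067 to 11832) and a difference of 0.55 ± 0.26, which was 0.41 ± 0.26 with an unadjusted p of 0.127 without control replicate 7. Btg2, a brake on cell division, had 470.0 in controls (320.2 to 548) and 578 in del337TR (492.6 to 795) and 0.48 ± 0.18. Kcnj2, the inward rectifier of the resting potential, had 45.3 in controls (29.2 to 68.9) and 9.8 in del337TR (6.7 to 44.3) and -1.57 ± 0.58, against 0.79 ± 0.58 in animals given WY14643. Mki67, a mark of dividing cells, had 60.1 in controls (31 to 89.2) and 42.4 in del337TR (10.6 to 60.2) and -0.78 ± 0.38, with an unadjusted p of 0.0848 without control replicate 7. Adipoq, the fat cell hormone adiponectin, had 33.3 in controls (17.5 to 179) and 90.7 in del337TR (40.1 to 215) and 0.97 ± 0.44, against -0.90 ± 0.44 in animals given WY14643. The fibroblast genes Tcf21 and Lum stood at 0.37 ± 0.15 and 0.34 ± 0.16, which became 0.30 ± 0.15 (unadjusted p 0.0618) and 0.27 ± 0.16 (unadjusted p 0.0961) without control replicate 7. The other probe set of Tcf21 stood at 0.05. Cd79b, of the B cell receptor, stood at -1.96 ± 0.73 at signals of 24.8 in controls (11.2 to 45.3) and 4 in del337TR (2.6 to 22.2). The Y-linked Uty stood at -1.24 ± 0.48, beside 5 of 7 male controls and 3 of 7 male del337TR samples. Within females it stood at -1.01 ± 0.24 and within males at -0.41 ± 0.16. The part of sex in the Uty difference was not tested.

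In the lists outside thyroid action, members are described by their direction and median, where 50.3% of all genes were higher. Natriuretic and wall stress genes were higher in 10 of 10 members (median 0.15, 1 at an unadjusted p under 0.05), and in 9 of 10 after quantile normalization. Without control replicate 7 Ankrd1, Ccn1 and Fhl1 turned to -0.007, -0.10 and -0.02, so the common direction rested on that array. Immediate early genes were higher in 12 of 15 (median 0.20), with Egr1 at 0.45 ± 0.38 and Ier3 at 0.48 ± 0.32. Jun among them turned to -0.02 without control replicate 7. Cell cycle genes were lower in 7 of 10 (median -0.31), and in 6 of 10 after quantile normalization or centring, with Top2a at -0.35 ± 0.23. The other 2 probe sets of Top2a stood at 0.61 and -0.04. PPAR target genes were higher in 12 of 17 with a median of 0.04, which were 7 of 17 and -0.01 after quantile normalization, and Pdk4, the brake on pyruvate use, stood at 0.04 ± 0.09. Without control replicate 7 Angptl4 turned to -0.04, Cyp4a14 to -0.17 and Acot2 to 0.0003. Clock genes were higher in 9 of 16, with Dbp at 0.22 ± 0.31 and Per2 at -0.22 ± 0.19, and 0 had an unadjusted p under 0.05. The other 2 probe sets of Per2 stood at -0.80 and 0.26.

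Markers of other tissues and cells were read as lists. All 7 atrial markers were higher in del337TR (median 0.83), with summed signals of 10492 to 37558 in controls and 13752 to 53761 in del337TR. Bmp10 among them, at 0.02, turned to -0.26 without control replicate 7. Myl7, an atrial light chain, had a median of 299.5 in controls (4.8 to 6647) and 2424 in del337TR (225 to 7246) and a difference of 2.67 ± 1.52, and Sln, the atrial calcium pump regulator, of 436 in controls (4.6 to 6291) and 2411 in del337TR (269.8 to 10883) and 3.02 ± 1.73. Without control replicate 7 these were 3.41 ± 1.53 (unadjusted p 0.0348) and 3.78 ± 1.75 (unadjusted p 0.0405). The ranges of both strains overlapped, and the lowest signals, 4.8 for Myl7 in control replicate 1 and 4.6 for Sln in control replicate 3, were near the bottom of the array. Matrix genes, higher in 11 of 13 with a median of 0.10, were higher in 3 of 13 with a median of -0.02 once the atrial score entered the fit. Whether the amount of atrial tissue accounts for other differences was not tested beyond these covariate fits. Fibroblast markers were higher in 6 of 7 (median 0.11) and summed to 15843 to 20240 in controls and 18230 to 20962 in del337TR. Macrophage markers were higher in 6 of 6 (median 0.12), endothelial markers in 3 of 7 (median -0.01, and 4 of 7 after quantile normalization or centring) and T cell markers in 2 of 6. Tie1 of the endothelial list turned to 0.008 and Cd3g of the T cell list to 0.13 without control replicate 7.

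Of the remaining lists, sarcomere genes were higher in 12 of 14 (median 0.04, and 9 of 14 after quantile normalization), heat shock genes in 6 of 9 (5 of 9 after quantile normalization) and ion channel and gap junction genes in 8 of 15 (7 of 15 after quantile normalization). Leaving out control replicate 7 turned the heat shock gene Hspe1 to 0.03 and the channel gene Kcnd2 to 0.095. Interferon-induced genes were higher in 4 of 12 with a median of -0.05. Gbp2 and Gbp3 among them turned to 0.10 and 0.22 without control replicate 7. Adipocyte markers were higher in 5 of 5 (median 0.49, and 4 of 5 after quantile normalization), with a median of -0.73 in animals given WY14643, and their summed signals overlapped at 8159 to 11054 in controls and 7848 to 11306 in del337TR. Lep among them, at 0.21, turned to -0.02 without control replicate 7. Smooth muscle markers were higher in 5 of 6, nerve and Schwann cell markers in 0 of 4, brown adipocyte markers in 1 of 5 and skeletal muscle markers in 4 of 8. Smtn among the smooth muscle markers turned to -0.03 without control replicate 7. Few of these list members stood under 0.05 before adjustment, the share being given above for all lists together.

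The strain difference was read again in the 14 animals given WY14643, which are other samples. There 0 of 45037 probe sets passed limma's adjusted threshold (0.00%, lowest adjusted p 0.403), and 3991 (8.86%) stood under 0.05 before adjustment, 2363 higher (5.25%) and 1628 lower (3.61%). Both comparisons had an unadjusted p under 0.05 for 176 probe sets, 124 in the same direction, which is 6.87% of the untreated list and 3.11% of the treated list. Of the 12 higher genes 6 were also higher with WY14643, and of the 12 lower genes 7 were also lower, while 52.8% of 23130 brighter named probe sets were higher there. Hbs1l, the ribosome rescue factor, was at -0.45 ± 0.12 with WY14643 (unadjusted p 0.00121) against -0.45 ± 0.12 without, and was the only one of the 24 in the same direction at an unadjusted p under 0.05. Of the 16 lower genes without overlap 12 were also lower with WY14643, and 4 of these had an unadjusted p under 0.05, namely Hbs1l, Chd1 (-0.48 ± 0.14), Map3k4 (-0.34 ± 0.12) and Wipi2 (-0.19 ± 0.09). Of the 5 higher ones 2 were also higher.

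St8sia2 went opposite ways on the probe set where it was higher without treatment. With WY14643 its signals were 85.3 in controls (32.2 to 130.6) and 26.2 in del337TR (19.8 to 66.0), a strain difference of -1.43 ± 0.33 (limma unadjusted p 0.000195, adjusted p 0.403). The untreated minus the treated difference was 2.56 ± 0.47 (limma unadjusted p 9.74e-06, adjusted p 0.439). On the scale used here 0 probe sets passed limma's adjusted test of that difference, where 2207 (4.90%) stood under 0.05 before adjustment, 741 with the larger value untreated (1.65%) and 1466 with the smaller (3.26%). For 8 of the 12 higher and 7 of the 12 lower genes the untreated and treated strain differences differed at an unadjusted p under 0.05, after a choice that had used the untreated values.

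**Figure D5:**
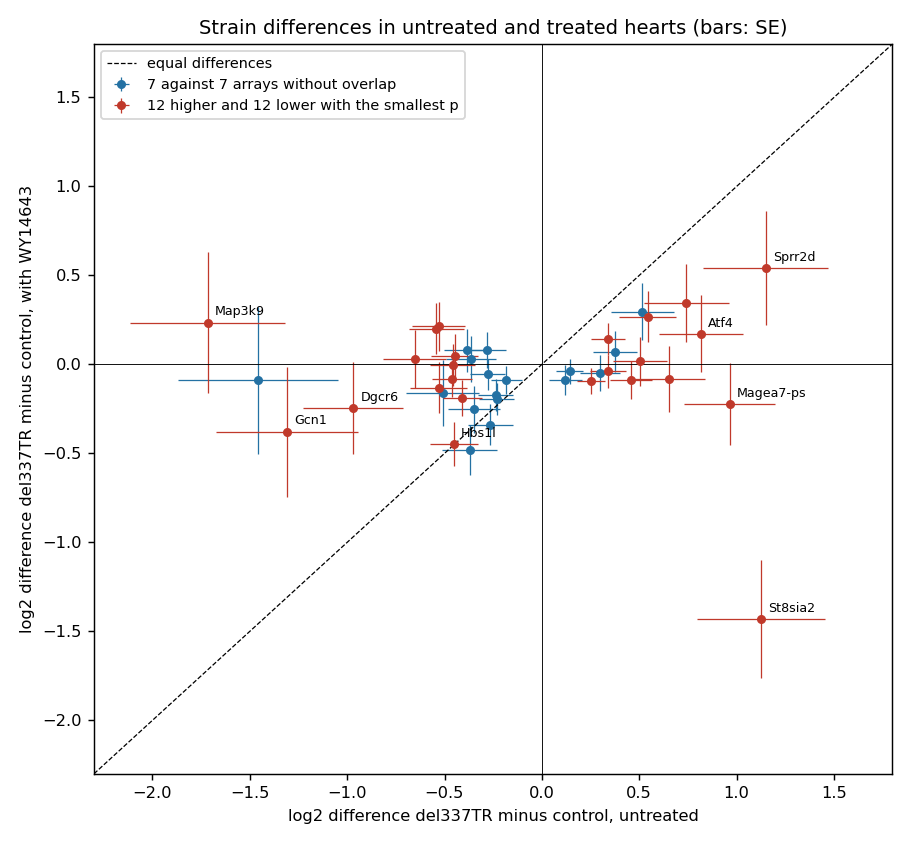
Strain difference (log2, del337TR minus control) in untreated hearts on the x axis and in hearts given WY14643 on the y axis, with SE bars (n = 7 per group); red points are the 24 genes with the smallest untreated p and blue points the others whose untreated groups do not overlap. Hbs1l lies near the line of equal differences, and St8sia2 lies at 1.13 untreated and -1.43 with WY14643.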

How the data were processed

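The deposited values are linear intensities per probe set. Per the submitters' processing notes the tool was RMA, with no version given, but the deposited intensities have an equal trimmed mean on every array and are not on a log scale. Gene names came from GEO's platform table, in which 34945 of 45037 probe sets have 1 gene symbol, 932 several and 9160 none. Of those with 1 symbol, 34741 matched RefSeq by Entrez number and 0 symbols changed. Control probe sets of the array (64) were left out. The intensities were taken to log2 with a floor of 0.1, which touched 3 values over all 28 arrays. Differences came from limma 3.58.1 in R 4.3.3, fitted on all 28 arrays with 4 group means and 24 residual degrees of freedom, with empirical Bayes moderation and Benjamini-Hochberg adjustment over 45037 probe sets and a threshold of 0.05. The fit was also run on a simulated set, made by shuffling the residuals between arrays and adding known changes to some probe sets. That run checked the code and does not show the power for differences of the size described here. Array measures used exact permutation tests (scipy 1.17.1).

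Genes were named by these rules: (a) every probe set past the threshold; (b) the 12 with the smallest unadjusted p in each direction among probe sets above the 40th percentile of brightness with 1 symbol; (c) such probe sets whose strains do not overlap; (d) all probe sets of Thra, Thrb and the schlafen genes; (e) up to 3 members with the smallest unadjusted p of each list, with 1 probe set a gene, the brightest; (f) the 5 nearest measured genes on each side of Slfn3 and Thrb. Further list members and genes with several probe sets were named outside these rules, for their known roles or after their values were seen. The groups, members and lists were chosen with earlier results of these data known. Of 378 pairs of arrays 0 held identical values. Alternatives changed the value added before the logarithm, the brightness filter, the moderation, the scaling, the arrays fitted, array weights, a replicate block, sex, the atrial score and each array in turn.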

Additional observations from a re-analysis of the deposited data

Results flagged for a closer look

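In these groups of 7 hearts, 22 of 348 groups, over 174 probe sets named or listed, had 1 heart farther from its nearest neighbour than Dixon's 95% critical value allows, where chance gives about 1 in 20 groups. Control replicate 7 gave 9 of them. It was lowest for Myh7, the slow myosin heavy chain (3103 against 14554 for the next heart), Myc (16.9 against 51.3), the fibroblast receptor Pdgfra (459 against 726), the leukocyte protein Lcp1 (201 against 269), the fat cell hormone Retn (32.3 against 90.2) and the carrier Ttr (49.4 against 237). It was highest for Colq (184 against 128), Thrsp (1384 against 903) and Gpd2 (289 against 197). Del337TR replicate 7 gave 4, being highest for the endothelial Pecam1 (1115 against 684), for Cd4 (73.9 against 23.4) and for the fast troponin Tnni2 (58.2 against 17.9), and lowest for Crym (3.3 against 17.6).

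Del337TR replicate 3 was lowest for the fast myosin Myh4 (5.8 against 24.4) and for Ncoa1 (552 against 672), and highest for Ttr (487 against 320). Del337TR replicate 6 was highest for Tcf4 (831 against 511) and lowest for Klf9 (3022 against 4228). Del337TR replicate 5 was lowest for Gskip (276 against 387) and del337TR replicate 1 for Acta2 (2447 against 3964). Control replicate 6 was highest for St7l (208 against 152) and control replicate 1 lowest for Lman1 (503 against 519).

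The strain difference of Slfn3 without treatment minus that with WY14643 was -2.15 when 16 was added to the signals, with a limma adjusted p of 0.0019.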

How the results depend on the processing

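The number of probe sets past the adjusted threshold was 1 with 16 added, with trend and robust moderation, after quantile normalization, after centring and with array weights. It was 0 among brighter probe sets alone, where Slfn3 is left out by construction. It was also 0 with the 14 untreated arrays alone, with sex or the atrial score as a covariate, and without the 4 arrays numbered 7, a setting chosen after seeing the data. There the limma adjusted p of Slfn3 was 0.573, 0.106, 0.188 and 0.598. Leaving out 1 array at a time gave 0 to 1. With a replicate block it was 0, the Slfn3 adjusted p 0.0894 and the count at an unadjusted p under 0.05 was 1997. Same-numbered arrays correlated between -0.07 and 0.19, so the numbers were not taken to pair the arrays, and only replicates 6 and 7 correlated best with their own number. The count at an unadjusted p under 0.05 was 1054 among brighter probe sets, and leaving out 1 array gave 1664 to 2016. Probe sets without overlap numbered 17 after centring, and 40 to 83 when 1 untreated array was left out, which leaves fewer hearts to overlap. With 16 added, 1 probe set passed the test of the difference between strain effects. Signs turned for small differences. The Thra probe set at 0.01 in the report was -0.0027 with array weights, -0.075 with sex, -0.021 with the atrial score, -0.067 without the arrays numbered 7 and -0.062 to 0.088 with 1 array left out. The one at -0.02 was 0.00051 after centring, 0.0090 with sex and -0.12 to 0.085 with 1 array left out. The dim probe set of Slfn1 was 0.049 with the atrial score, and the Slfn5 probe set at -0.06 was 0.12 without the arrays numbered 7. With 1 array left out these ranged from -0.18 to 0.049 and from -0.15 to 0.039, the Slfn5 probe set at 0.12 from -0.068 to 0.31 and Slfn8 from -0.53 to 0.16. The causes were not tested.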

Other observations

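Each of the 4 groups was set against the other 21 hearts. Of 45037 probe sets, all 7 hearts of 1 group lay above all others for 3 and below for 0. Besides Slfn3, the untreated controls stood apart for 1 probe set of Gskip, at 456.7 to 642.6 against 275.9 to 439.3 in the others. Controls given WY14643 stood apart for Osbpl6, a lipid transfer protein of the oxysterol binding family, at 38.9 to 69.8 against 4.3 to 37.2. The difference between treated and untreated controls was 1.36 ± 0.43 for Osbpl6 and -4.10 ± 0.71 for Slfn3. Neither del337TR group stood apart for any probe set in this way.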
